A study of Mus musculus with 4 samples.

Results

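Transcripts of the enzymes that make reactive oxygen and nitrogen species in the colon mucosa, and of the enzymes that remove hydrogen peroxide, were described in 4 mouse colon arrays. The 10 genes were chosen by function: Duox2, Duoxa2, Nox1, Noxo1, Cyba, Cybb, Nos2, Gpx1, Gpx2 and Cat. Earlier results of these data were known when they were chosen. Of the 10 genes, 8 had a probe set with a single gene symbol in the platform annotation, 11 probe sets in all, out of 18194 genes so named. Duox2 and Nox1 had no such probe set, and probe sets with several symbols were not searched. The catalytic subunits of both epithelial oxidases thus have no value here.

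Each array held RNA from colon mucosal scrapings of 129S6/SvEv mice at 5 weeks of age, and each genotype had 1 array. VhlΔIE/Apcmin/+ mice lacked Vhl in the intestine and carried the Min mutation of Apc, which makes them an intestinal tumour model. VhlF/F/Apcmin/+ mice carried floxed Vhl and the same Apc mutation, VhlΔIE mice lacked intestinal Vhl with wild-type Apc, and VhlF/F mice carried floxed Vhl with wild-type Apc. The design text names 5, 3, 3 and 4 mice in this order, and whether their RNA was pooled is not given in the sources used here. The labels do not name the promoter that drives the deletion, and scrapings hold blood vessel, immune and stromal cells beside epithelium. All differences below are between single arrays, so none has a replicate check and no p-value is given. Values are deposited log2 values, on which a difference of 1 is 2-fold.

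The epithelial oxidases of the colon are assembled from several proteins. NOX1 makes superoxide at the crypt surface together with the membrane partner CYBA and the organiser NOXO1, and DUOX2 releases hydrogen peroxide into the lumen once DUOXA2 has carried it to the cell surface. Phagocytes use a related oxidase whose catalytic subunit is CYBB, also with CYBA, and NOS2 makes nitric oxide in inflamed tissue. GPX1 and GPX2 are selenoproteins that reduce hydrogen peroxide with glutathione, GPX2 mainly in the gut epithelium, and catalase, encoded by Cat, breaks hydrogen peroxide down in peroxisomes.

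Vhl and Cre readings followed the Vhl labels, no reading here checks the Apc label, and the arrays also differed in makeup. Vhl read 6.56 in VhlΔIE/Apcmin/+ against 8.17 in VhlF/F/Apcmin/+, and 7.03 in VhlΔIE against 8.40 in VhlF/F. The 4 control probe sets for Cre recombinase lay between 7.41 and 9.95 in the Vhl deleted arrays and between 2.97 and 4.45 in the floxed arrays. Xist, a marker of female tissue, read 6.25 and 5.58 in the VhlΔIE/Apcmin/+ and VhlΔIE arrays, against 11.83 and 11.37 in VhlF/F/Apcmin/+ and VhlF/F. Eif2s3y, a Y-linked gene, read 8.80 in VhlΔIE/Apcmin/+ against 7.27 in VhlF/F/Apcmin/+, and 8.78 in VhlΔIE against 8.58 in VhlF/F. Both floxed arrays thus read high for Xist with Eif2s3y also above 6, and the Eif2s3y gap was 1.54 with the Apc mutation and 0.20 without it. The part of sex makeup in the Vhl differences was not tested. The 10 hepatocyte markers averaged 5.51, 5.43 and 5.67 in the VhlΔIE/Apcmin/+, VhlF/F/Apcmin/+ and VhlΔIE arrays, and 9.09 in VhlF/F. The 7 epithelial markers averaged 13.21, 13.11, 13.23 and 13.18 in the VhlΔIE/Apcmin/+, VhlF/F/Apcmin/+, VhlΔIE and VhlF/F arrays, so all 4 held abundant epithelial RNA.

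Across the oxidase and peroxide-defence genes, the oxidase partners read higher in the arrays of Vhl deleted colon, and the glutathione peroxidases read nearly the same in all 4 arrays. Duoxa2 had the widest range, 1.28, and Gpx1 the narrowest, 0.09. For 6 of the 8 genes (Duoxa2, Noxo1, Cyba, Cybb, Nos2 and Gpx2) both Vhl deleted arrays read above both floxed arrays, an order that 27.7% of all 11871 genes above the floor showed. The floor was a value of 6 in at least 1 array. Duoxa2 passed it through the Vhl deleted arrays alone and Nos2 through VhlΔIE/Apcmin/+ alone, so their place in that count is no support. For 1 gene, Cat, both Vhl deleted arrays read below both floxed arrays, as did 33.4% of all genes. That order held for the brighter Cat probe set and not for the other.

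**Figure D1:**
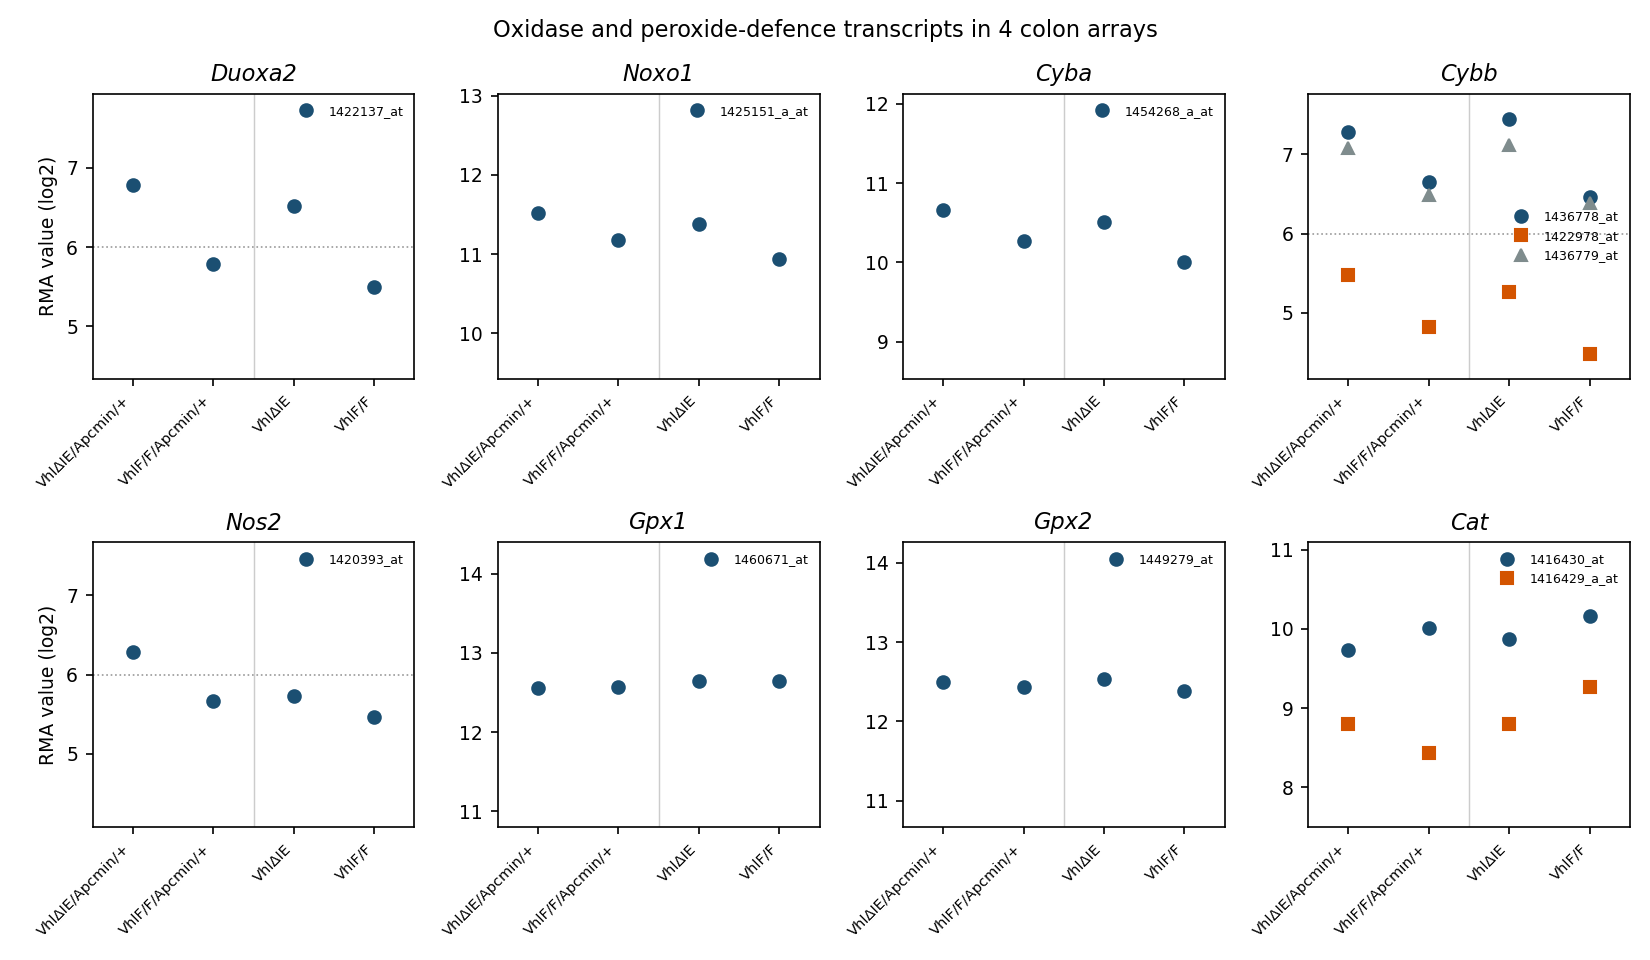
RMA log2 value (vertical axes, each spanning the same width) of every probe set of the 8 genes in the 4 arrays (horizontal axes), with 1 panel a gene, and a dotted line at the floor of 6 where it falls inside the panel. Duoxa2 reads 6.78 and 6.52 in the Vhl deleted arrays and 5.79 and 5.50 in the floxed arrays, whereas the Gpx1 points lie between 12.55 and 12.64.

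Duoxa2, the maturation factor of DUOX2, read 6.78 in VhlΔIE/Apcmin/+, 5.79 in VhlF/F/Apcmin/+, 6.52 in VhlΔIE and 5.50 in VhlF/F. It was thus higher by 1.02 in VhlΔIE than in VhlF/F, or 2.03-fold, and by 0.99 with the Apc mutation, or 1.99-fold. Both floxed readings lay under the floor, not far above the 27 Bacillus subtilis control probe sets, which reached 5.10 and had a median of 3.23, and the difference is compressed there. Duoxa2 passed the floor through the Vhl deleted arrays alone, so its size in the Vhl comparisons is no support. With readings under 6 raised to 6, the difference without the Apc mutation was 0.52. Against the VhlF/F/Apcmin/+ array in place of VhlF/F, VhlΔIE was higher by 0.73. Duoxa2 lies between Duox2 and Duoxa1 in the order of protein-coding genes on chromosome 2. The probe sets of the paralogues stayed under the floor in every array, Duoxa1 with 4.98, 5.02, 4.96 and 4.80 and Duox1 with 4.49, 4.40, 4.68 and 4.66 in VhlΔIE/Apcmin/+, VhlF/F/Apcmin/+, VhlΔIE and VhlF/F.

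Noxo1, the organiser of the NOX1 oxidase, read 11.51 in VhlΔIE/Apcmin/+, 11.18 in VhlF/F/Apcmin/+, 11.38 in VhlΔIE and 10.94 in VhlF/F. Both Vhl deleted arrays were the higher ones, by 0.44 or 1.36-fold without the Apc mutation and by 0.34 or 1.26-fold with it. A difference at least as high was seen for 9.34% and 14.2% of all genes. The floxed arrays were themselves 0.24 apart, with VhlF/F the lowest of all 4.

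Cyba, the membrane partner that NOX1 and CYBB both need, read 10.66 in VhlΔIE/Apcmin/+, 10.27 in VhlF/F/Apcmin/+, 10.51 in VhlΔIE and 10.003 in VhlF/F. The order of the arrays was that of Noxo1, with Vhl differences of 0.51 without and 0.39 with the Apc mutation. Those are 1.42-fold and 1.31-fold, and 7.64% and 12.2% of all genes were at least as high. Because CYBA serves epithelial and phagocyte oxidases, its level does not say which cells carried the transcript.

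Cybb, the catalytic subunit of the phagocyte oxidase, had 3 probe sets, and all 3 were higher in both Vhl deleted arrays. The brightest read 7.29 in VhlΔIE/Apcmin/+, 6.64 in VhlF/F/Apcmin/+, 7.45 in VhlΔIE and 6.47 in VhlF/F. Its Vhl difference was 0.98 without the Apc mutation, 1.98-fold, and 0.64 with it, 1.56-fold. The other probe sets gave 0.78 and 0.73 without the Apc mutation and 0.65 and 0.59 with it, and the dimmest of the 3, at 4.48 to 5.48, lay under the floor in every array. Cybb is X-linked, and the Xist readings above differed with Vhl status in the same arrays.

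The cytosolic partners of the phagocyte oxidase differed by less than Cybb. Ncf1 was higher by 0.61 in VhlΔIE than in VhlF/F and by 0.35 with the Apc mutation, and Ncf4 by 0.70 and 0.33. Rac2, the small GTPase of the phagocyte oxidase, differed by 0.33 and 0.05. Of 10 further oxidase subunits and relatives, 7 had a probe set and 4 lay above the floor, with medians of 0.47 and 0.19 and none at least 2-fold apart, while the median of all genes was -0.02 in both comparisons. Rac1, the small GTPase that NOX1 also uses, differed by 0.06 and 0.05.

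Markers of macrophages and dendritic cells differed in the same direction. Of 11 markers, 10 lay above the floor, and these 10 were higher in VhlΔIE than in VhlF/F, with a median of 0.69, and 9 of 10 were higher with the Apc mutation, with a median of 0.35, where 46.6% and 46.5% of all genes read higher. The mean of the 11 markers was 8.34 in VhlΔIE/Apcmin/+, 8.04 in VhlF/F/Apcmin/+, 8.40 in VhlΔIE and 7.77 in VhlF/F. The 3 leukocyte markers had medians of 0.66 and 0.27, and the 6 endothelial markers 1.28 and 1.32. The 7 colonocyte markers had medians of -0.63 and -0.30 and the 5 smooth muscle markers -0.40 and -0.38. Of 8 neutrophil markers, only S100a8 passed the floor, and all 4 eosinophil markers stayed under it. S100a8 read 6.44 in VhlΔIE/Apcmin/+, 4.89 in VhlF/F/Apcmin/+, 6.44 in VhlΔIE and 4.73 in VhlF/F, with Vhl differences of 1.71 and 1.55. Both floxed readings lay under the floor. S100a8 passed the floor through the Vhl deleted arrays alone, so its direction is no support. The part of these cells in the Cybb and Cyba differences was not tested. In tissue RNA, more or fewer cells of a type cannot be told apart from more or less RNA per cell.

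**Figure D2:**
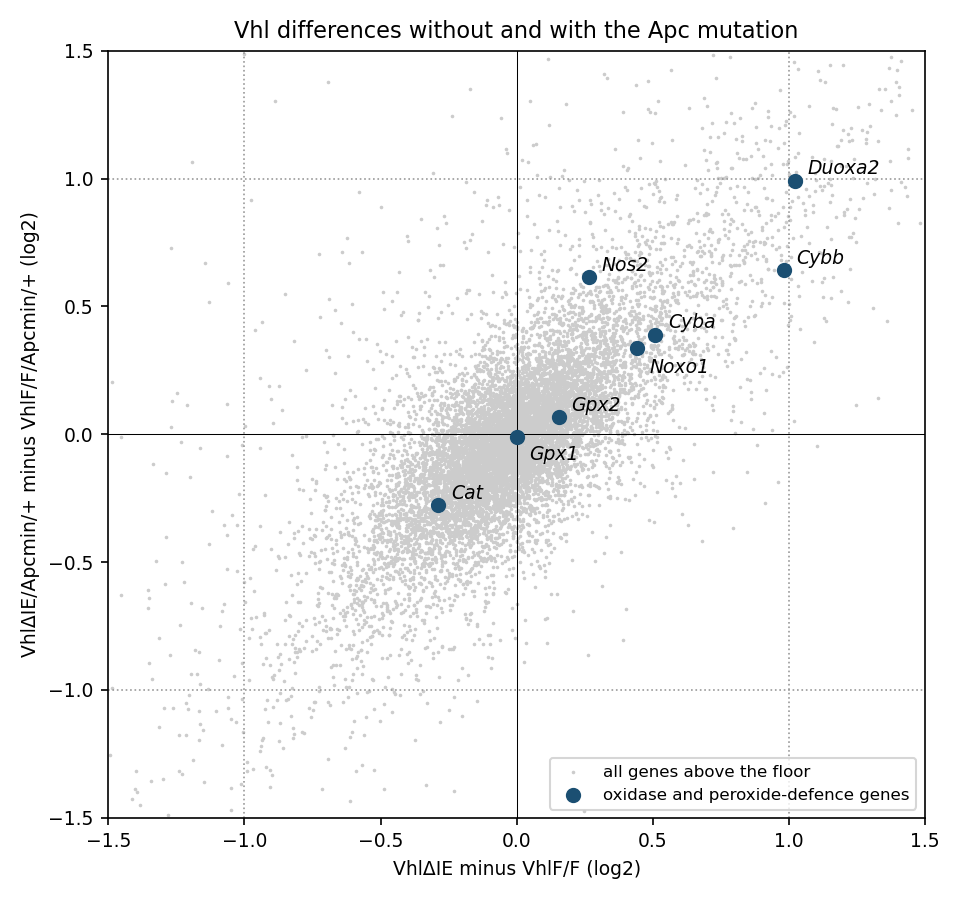
Vhl difference without the Apc mutation (horizontal axis, log2) against that with it (vertical axis, log2) for the 8 genes (labelled) and all genes above the floor (grey, 11588 of 11871 inside the axes, 283 outside), with dotted lines at 2-fold. Duoxa2 and Cybb lie farthest to the upper right, Gpx1 at the origin and Cat to the lower left.

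Nos2, the inducible nitric oxide synthase, read 6.28 in VhlΔIE/Apcmin/+, 5.67 in VhlF/F/Apcmin/+, 5.73 in VhlΔIE and 5.47 in VhlF/F. The double mutant array alone reached the floor, and the other 3 readings were within 0.27 of each other. The Vhl difference was 0.27 without the Apc mutation and 0.62 with it. The Apc difference was 0.20 with floxed Vhl and 0.55 with deleted Vhl. Nos2 passed the floor through the double mutant array alone, so its size in comparisons with that array is no support. With readings under 6 raised to 6, its Vhl difference with the Apc mutation and its Apc difference with deleted Vhl were both 0.28.

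Among genes of nitric oxide and arginine metabolism, Ddah1, Arg2 and Arg1 differed more widely than Nos2. Of 7 above the floor, 4 read higher and 3 lower in VhlΔIE than in VhlF/F, with 1 at least 2-fold lower, and with the Apc mutation 6 read higher, 3 of them at least 2-fold. Of all genes, 46.6% read higher and 1.60% at least 2-fold lower in the comparison without the Apc mutation. In the comparison with it, 46.5% of all genes read higher and 2.82% at least 2-fold higher. Gch1, which makes the cofactor of nitric oxide synthases, was higher by 0.76 and 0.60. Ddah1, which breaks down an endogenous synthase inhibitor, read 10.54 in VhlΔIE/Apcmin/+, 8.71 in VhlF/F/Apcmin/+, 10.49 in VhlΔIE and 9.78 in VhlF/F. Arg2, the mitochondrial arginase, read 6.68, 4.60, 6.90 and 6.11 in the same order of arrays, so that VhlF/F/Apcmin/+ was the lowest for both. Arg1, the arginase of liver and macrophages, read 5.63, 4.24, 4.66 and 6.47, and it was highest in VhlF/F, the array with the hepatocyte transcripts. It passed the floor through that array alone. Arg1 was the gene at least 2-fold lower, and with Ddah1 and Arg2 it made up those at least 2-fold higher with the Apc mutation. The calls of Arg1 are thus no support.

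Gpx1, the ubiquitous cytosolic glutathione peroxidase, read 12.55 in VhlΔIE/Apcmin/+, 12.57 in VhlF/F/Apcmin/+, 12.64 in VhlΔIE and 12.64 in VhlF/F. Its Vhl differences were 0.0008 and -0.01, and both Apc mutant arrays read below both wild-type arrays, with differences of -0.07 with floxed and -0.09 with deleted Vhl. Gpx2, the gut glutathione peroxidase, read 12.50, 12.43, 12.54 and 12.39 in the same order. Its Vhl differences of 0.15 and 0.07 are 1.11-fold and 1.05-fold, and 25.5% and 36.5% of all genes were at least as high. Both transcripts were bright, where an array separates levels less well.

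Cat had 2 probe sets that did not run together. The brighter read 9.73 in VhlΔIE/Apcmin/+, 10.01 in VhlF/F/Apcmin/+, 9.88 in VhlΔIE and 10.16 in VhlF/F, with Vhl differences of -0.29 and -0.28. The other read 8.80, 8.43, 8.80 and 9.27, with Vhl differences of -0.47 without and 0.37 with the Apc mutation. Both probe sets had their highest reading in the VhlF/F array, which held the hepatocyte transcripts, and liver is rich in catalase. The part of liver RNA in the Cat values was not tested. The comparison with the Apc mutation does not use that array, and there the 2 probe sets pointed in opposite directions.

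Promoter sequences of Duoxa2, Noxo1, Cyba and Gpx1 are shown because the first 3 are the oxidase partners that read higher in Vhl deleted colon and Gpx1 had the smallest Vhl differences, and because hypoxia-inducible factors, which accumulate without VHL, bind a short core. The core was searched as ACGTG or GCGTG on both strands, and capitals mark each match. GCGTG is also the core of the aryl hydrocarbon receptor motif, and ACGTG overlaps the E-box CACGTG. Sequences are from RefSeq, 250 bases before to 50 bases after the gene start, written in the direction of the gene, and 9 of the 10 genes had an entry.
Duoxa2, GRCm38.p6, chr2:122298650-122298949, + strand: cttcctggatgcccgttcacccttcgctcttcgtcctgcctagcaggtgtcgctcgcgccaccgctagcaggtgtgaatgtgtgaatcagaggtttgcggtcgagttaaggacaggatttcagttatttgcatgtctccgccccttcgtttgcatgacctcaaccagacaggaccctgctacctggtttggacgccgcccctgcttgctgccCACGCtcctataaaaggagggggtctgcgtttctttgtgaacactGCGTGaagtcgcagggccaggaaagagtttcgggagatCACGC
Noxo1, GRCm38.p6, chr17:24695984-24696283, + strand: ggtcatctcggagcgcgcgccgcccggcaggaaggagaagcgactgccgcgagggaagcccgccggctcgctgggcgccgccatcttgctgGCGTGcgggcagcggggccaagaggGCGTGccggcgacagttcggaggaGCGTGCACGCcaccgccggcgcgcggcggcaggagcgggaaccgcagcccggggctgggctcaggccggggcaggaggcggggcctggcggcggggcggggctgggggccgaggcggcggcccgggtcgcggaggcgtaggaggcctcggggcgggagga
Cyba, GRCm38.p6, chr8:122432891-122433190, - strand: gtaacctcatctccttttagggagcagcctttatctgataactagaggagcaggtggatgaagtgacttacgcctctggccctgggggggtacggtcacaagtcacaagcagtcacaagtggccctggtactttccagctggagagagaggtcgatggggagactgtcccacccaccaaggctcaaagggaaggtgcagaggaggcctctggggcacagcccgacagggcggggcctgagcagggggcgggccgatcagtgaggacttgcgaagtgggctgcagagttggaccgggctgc
Gpx1, GRCm38.p6, chr9:108338830-108339129, + strand: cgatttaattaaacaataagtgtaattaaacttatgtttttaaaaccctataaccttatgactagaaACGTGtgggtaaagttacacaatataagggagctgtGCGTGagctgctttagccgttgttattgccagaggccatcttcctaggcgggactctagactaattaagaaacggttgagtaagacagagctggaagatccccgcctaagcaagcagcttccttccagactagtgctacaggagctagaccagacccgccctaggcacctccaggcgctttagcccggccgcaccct

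The Duoxa2 window held 3 matches, the Noxo1 window 4 and the Gpx1 window 2, and the Cyba window held none. Matches in 3 of 9 windows can be set beside 43.8% of 32851 mouse promoters of the same length. The genes shown were chosen by their Vhl differences, and bases outside the windows were not searched. Whether a match bears on the Vhl differences was not tested. The core of the antioxidant response element, TGACNNNGC on either strand, was in none of the 9 windows and in 12.4% of all promoters. The STAT core, TTCNNNGAA, was also in none of them and in 8.30% of all.

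Counted by the 2-fold rule, Vhl deletion without the Apc mutation had 1 of the 8 genes higher, Duoxa2, where 2.27% of all genes were higher, and 0 lower, where 1.60% were. With the Apc mutation 0 were higher and 0 lower, beside 2.82% and 1.52% of all genes. Duoxa2 missed the threshold there with 0.99 against 1.02, so the counts of 1 and 0 do not mark a difference between the backgrounds. Because Duoxa2 passed the floor through the Vhl deleted arrays alone, its calls at either threshold are no support. The medians of the 8 genes were 0.35 and 0.36, and the median of all genes was -0.02 in both. Duoxa2 and Nos2, which passed the floor only through arrays where they read high, are part of these medians, so they are no support. At a floor of 7, which left out both, the medians of 6 genes were 0.30 and 0.20, and those of all genes -0.02 and -0.03. Cybb passed a floor of 7 through the Vhl deleted arrays alone. At 1.5-fold, 2 genes were higher without the Apc mutation, Duoxa2 and Cybb, beside 6.22% of all genes, and 3 with it, Duoxa2, Cybb and Nos2, beside 7.19%. With readings under 6 raised to 6, Duoxa2 without the Apc mutation, at 0.52, and Nos2 with it, at 0.28, were under 1.5-fold. None was lower at 1.5-fold, beside 5.08% and 5.15%. The difference between the backgrounds lay between -0.34 for Cybb and 0.35 for Nos2. For scale, 7 of 8 HIF targets, Vegfa and Egln3 among them, were at least 2-fold higher in both comparisons, with list medians of 1.95 and 1.95.

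Other genes of the antioxidant response were set beside these. Of 8 NRF2 pathway genes above the floor, 6 read higher in VhlΔIE than in VhlF/F and 6 with the Apc mutation, beside 46.6% and 46.5% of all genes, with medians of 0.48 and 0.65. Keap1 was among the higher genes, by 0.47 and 0.75. Nfe2l2, the gene of NRF2 itself, differed by -0.22 and -0.04 and Osgin1 by -0.06 and -0.13. Hmox1, which degrades haem, was higher by 1.07 and 0.81, but it read 5.71 in VhlF/F/Apcmin/+ and 5.53 in VhlF/F, under the floor. It passed the floor through the Vhl deleted arrays alone, so its size is no support. Nor is its place in the counts and medians of the NRF2 pathway genes. Gclm, a subunit of the enzyme that starts glutathione synthesis, was higher by 0.69 and 0.71. Srxn1, which repairs oxidised peroxiredoxins, was higher by 0.65 and 0.67, whereas Gclc, the catalytic partner of Gclm, differed by -0.58 and -0.67. Among glutathione peroxidases outside the named genes, Gpx3, the secreted form, was higher by 0.78 and 0.62 and Gpx7, which resides in the endoplasmic reticulum, by 0.95 and 0.72.

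The peroxiredoxin and thioredoxin list had medians of 0.04 and 0.01 over 11 genes, with Prdx4 of the endoplasmic reticulum higher by 0.81 and 0.66. The superoxide dismutases, which make hydrogen peroxide from superoxide, had medians of 0.05 and 0.16, with Sod2, the mitochondrial form, at -0.20 and -0.22 and Sod3, the extracellular form, at 0.05 and 0.63. Genes of selenoprotein synthesis and transport, counted together with a further selenoprotein, had medians of -0.13 and -0.26 over 6 genes. Sephs2, which makes the selenium donor, differed by -0.41 and -0.26, and Sepsecs, which makes selenocysteine on its tRNA, by -0.29 and -0.39. Lpo, a peroxidase that consumes hydrogen peroxide, read 10.73 in VhlΔIE/Apcmin/+, 11.43 in VhlF/F/Apcmin/+, 9.32 in VhlΔIE and 11.32 in VhlF/F. It was the 1 haem peroxidase of 3 with a probe set that passed the floor.

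**Figure D3:**
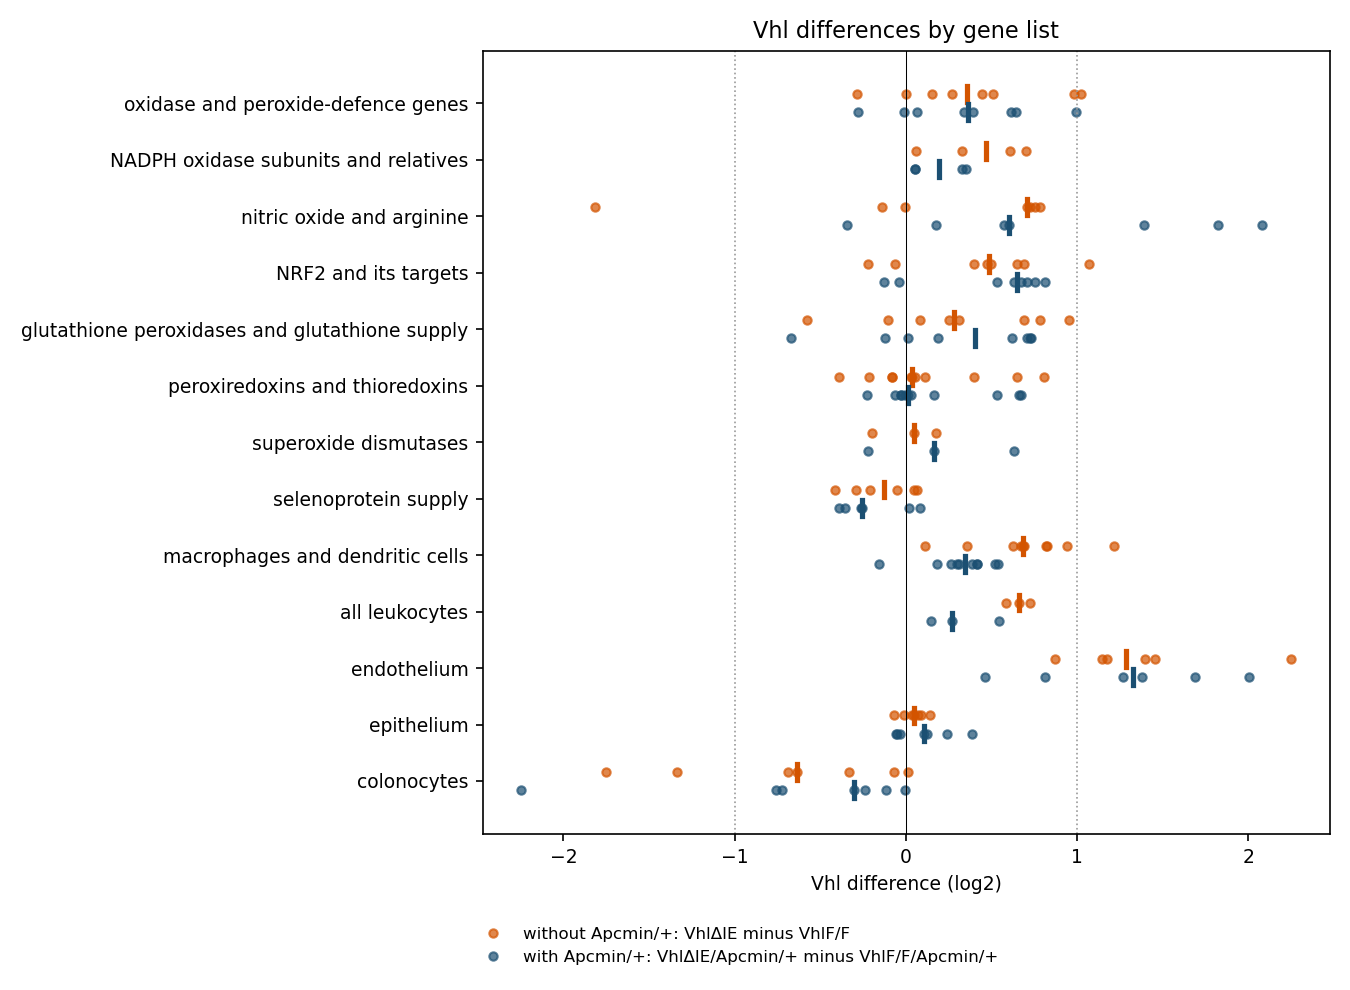
Vhl difference (horizontal axis, log2) of each gene above the floor in the 8 oxidase and peroxide-defence genes, 7 lists of related genes and 5 lists of cell type markers, without (orange) and with (blue) the Apc mutation; upright bars are list medians and dotted lines are at 2-fold. The 8 genes have medians of 0.35 and 0.36, the macrophage and dendritic cell markers 0.69 and 0.35, the endothelial markers 1.28 and 1.32 and the epithelial markers 0.05 and 0.10. Duoxa2 and Nos2 passed the floor only through arrays where they read high, so the medians of the 8 genes are no support.

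Between Apc mutant and wild-type colon the 8 genes differed by less. With floxed Vhl, 6 read higher and 2 lower, between -0.15 and 0.29, and 0 passed 2-fold in either direction, beside 0.118% of all genes higher and 0.901% lower. With deleted Vhl, 4 read higher and 4 lower, between -0.16 and 0.55, and again 0 passed 2-fold, beside 0.202% and 0.118% of all genes. At 1.5-fold the counts were also 0 in both directions, beside 1.05% of all genes higher and 2.36% lower in floxed mice, and 0.724% higher and 0.792% lower in deleted mice. Duoxa2 was higher by 0.29 and 0.26, Cyba by 0.27 and 0.15 and Noxo1 by 0.24 and 0.13. The VhlF/F array had the lowest reading of all 4 for each of these genes. For none of the 8 did both Apc mutant arrays read above both wild-type arrays, an order seen for 12.5% of all genes, and for 1, Gpx1, both read below, as did 12.2% of all genes.

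Genes induced in epithelium by interleukins or microbes, a class to which Duoxa2 and Nos2 belong, differed among themselves in the order of the arrays. Reg3b, an antimicrobial lectin, read 7.67 in VhlΔIE/Apcmin/+, 6.06 in VhlF/F/Apcmin/+, 9.81 in VhlΔIE and 9.87 in VhlF/F, with both Apc mutant arrays low, and its relative Reg3g read 6.04, 5.25, 7.37 and 7.53. Retnlb, an antibacterial goblet cell protein, read 10.36, 6.35, 9.64 and 10.12, low in VhlF/F/Apcmin/+ alone. Saa3, an acute phase protein, read 8.36, 6.76, 8.50 and 6.86 in the same order of arrays, with both Vhl deleted arrays high as for Duoxa2. Of the 10 genes on this list, 1 was at least 2-fold higher in VhlΔIE than in VhlF/F and 3 were with the Apc mutation, beside 2.27% and 2.82% of all genes.

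**Figure D4:**
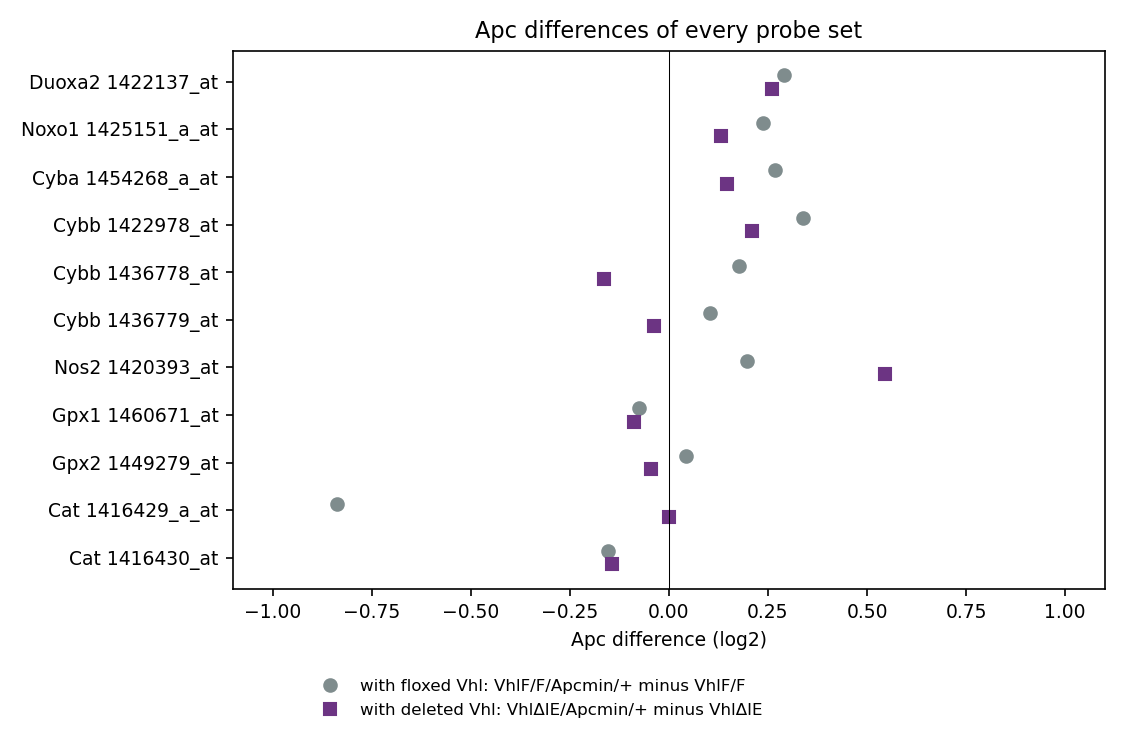
Apc difference (horizontal axis, log2) of each of the 11 probe sets (rows), with floxed Vhl (grey circles) and with deleted Vhl (purple squares). All points but 2 lie within 0.35 of 0; those 2 are Nos2 with deleted Vhl at 0.55 and the dimmer Cat probe set with floxed Vhl at -0.84.

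Both alterations together, VhlΔIE/Apcmin/+ against VhlF/F, gave the largest gap for Duoxa2, 1.28 or 2.43-fold, and it was the 1 gene of 8 at least 2-fold higher, beside 2.26% of all genes, with 0 lower, beside 1.68%. At 1.5-fold 4 were higher, Duoxa2, Cybb, Nos2 and Cyba, beside 6.35% of all genes, and 0 lower, beside 5.89%. Cybb was higher by 0.82, Nos2 by 0.81, Cyba by 0.66 and Noxo1 by 0.57. With readings under 6 raised to 6 the Duoxa2 difference was 0.78, under 2-fold, and that of Nos2 0.28, under 1.5-fold. Duoxa2 and Nos2 passed the floor only through arrays where they read high, so their calls here are no support. Gpx2 differed by 0.11, Gpx1 by -0.09 and Cat by -0.43. The median of the 8 genes was 0.62 and that of all genes -0.02. Duoxa2 and Nos2 are part of that median, so it is no support either. At a floor of 7, which left out both, the median of the 6 remaining genes was 0.34 and that of all genes -0.03. Cybb passed a floor of 7 through the Vhl deleted arrays alone. This comparison shares the VhlF/F array with the comparison of VhlΔIE and with that of VhlF/F/Apcmin/+ above.

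The genes whose pattern over the 4 arrays came closest to that of Duoxa2 were Tmem40, Pgam2, Cd300lg, Shroom4 and Rnf183, with root mean square differences of 0.06 to 0.07 between values centred on each gene's mean. Tmem40 read 7.69 in VhlΔIE/Apcmin/+, 6.71 in VhlF/F/Apcmin/+, 7.57 in VhlΔIE and 6.41 in VhlF/F. Closest to Nos2 were Ccn4, Slc7a4, Col15a1, C1qtnf6 and Slc5a9, with differences of 0.02 to 0.07. Ccn4 read 6.81 in VhlΔIE/Apcmin/+, 6.15 in VhlF/F/Apcmin/+, 6.24 in VhlΔIE and 5.96 in VhlF/F. The likeness rests on 4 arrays, and clone, predicted-gene and olfactory receptor symbols were passed over in the ranking. Pgam2, Cd300lg and Rnf183 read under the floor in both floxed arrays, and Shroom4 did in VhlF/F.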

How the data were processed

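Colon mucosa of 4 genotypes was measured on 1 Affymetrix mouse array each. The authors deposited a log2 value for each of 45101 probe sets, and the submitters' processing notes name affy and RMA without a version. RMA corrects background, equalises the arrays' distributions and summarises probes by median polish, so a shift of all transcripts would not be seen. Array medians lay between 6.05 and 6.07.

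Gene symbols came from the platform annotation, which can be old: 34958 probe sets had 1 symbol, 932 had several and 9211 had no name here. A gene took its probe set with the highest mean, and 11871 of 18194 genes reached 6 in at least 1 array. Members and lists were chosen with earlier results of these data known. List genes were named where at least 2-fold apart in any of 5 comparisons, or else the 2 with the largest difference. Rac1, Rac2, Gch1, Gclm, Gclc, Gpx3, Keap1, Nfe2l2, Osgin1, Duox1 and Duoxa1, and Vegfa and Egln3, were picked after their values were seen.

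Differences are 1 array minus another, with no test, and the number of arrays limits the precision. The counting was tested on simulated data. Other floors, probe set rules, cyclic loess (limma 3.58.1 in R 4.3.3) and a 1.5-fold threshold were tried, and, chosen after seeing the data, the other floxed array in place of VhlF/F. Python 3.11.15 with pandas 2.3.3 computed the rest.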

Additional observations from a re-analysis of the deposited data

Results flagged for a closer look

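Differences of opposite sign in the 2 backgrounds of 1 contrast rest on single arrays, and the difference between them was not tested. For Vhl deletion without and with the Apc mutation, the dimmer Cat probe set differed by -0.47 and 0.37, Arg1 by -1.82 and 1.39, Reg3b by -0.06 and 1.61, Reg3g by -0.16 and 0.78 and Retnlb by -0.48 and 4.01. For the Apc mutation with floxed and deleted Vhl, the brightest Cybb probe set differed by 0.18 and -0.16, another Cybb probe set by 0.10 and -0.04 and Gpx2 by 0.04 and -0.04. In the same contrast Ncf1 differed by 0.11 and -0.14, Ncf4 by 0.24 and -0.13 and Hmox1 by 0.19 and -0.07. Arg1 differed by -2.23 and 0.98, Ddah1 by -1.07 and 0.05 and Retnlb by -3.77 and 0.73.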

How the results depend on the processing

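No paired analysis was possible because each genotype had 1 array. Without a replicate the counts turn on Duoxa2 and on readings near the floor. Without the Apc mutation 1 gene was at least 2-fold higher with Vhl deletion. That count was 0 at a floor of 7, 0 with values under 6 raised to 6, 0 against the VhlF/F/Apcmin/+ array, 2 with cyclic loess and 2 at 1.5-fold. With the Apc mutation the count of 0 became 1 with cyclic loess and 3 at 1.5-fold. For both alterations together the count of 1 became 0 at a floor of 7, 0 with values under 6 raised to 6 and 4 at 1.5-fold. At 1.5-fold, 6.22%, 7.19% and 6.35% of all genes were higher in these 3 comparisons. A floor of 7 left out Duoxa2 and Nos2. Under no floor, the mean over probe sets and the removal of probe sets prone to cross-hybridisation, which drops Noxo1 and Cyba, these counts did not move, and counts of lower genes were 0 under every alternative. With the mean over probe sets the Vhl difference of Cat with the Apc mutation was 0.05, against -0.28 for its brighter probe set. Cyclic loess moved no difference by over 0.06.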
